A study of Mus musculus with 2 samples.

Results

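The cells described here are megakaryocyte-primed progenitors, picked from single-cell profiles of aged mouse bone marrow by transcripts of Pf4 and Gata1. A member had at least 2 unique molecular identifiers (UMIs, each standing for 1 captured RNA molecule) of Pf4 and at least 1 of Gata1. Cells with a UMI of both Klf1 and Car1, genes of red cell precursors, were left out. The rule kept 301 of 7967 cells, or 3.78% (95% interval 3.37 to 4.22, exact binomial). The cells came from a CITE-seq experiment, which counts RNA and antibody tags on surface proteins in the same cell, on LSK cells (marrow cells with Sca-1 and c-Kit but no lineage marker, among which stem cells and multipotent progenitors lie). Chelator mice were dosed with deferoxamine, an iron chelator, at 50 mg/kg daily for 7 days, and control mice with HBSS, a salt solution, on the same days. Both schedules were repeated every 4 weeks over 13 months, beginning when the mice were about 6 months of age. About 20000 LSK cells per condition were sorted, marked with 1 hashtag antibody per condition, pooled in equal parts and run as 1 loading of a 5' kit, so each condition is 1 pool of cells. The strain, the sex and the number of mice were not given in the sources used here. No test between conditions was possible with 1 pool each, and the intervals given cover error of counting alone, leaving out the spread between mice.

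Megakaryocytes are the large marrow cells that shed platelets. Their program is switched on by GATA1 with FLI1, RUNX1 and NFE2, and it makes the platelet integrin of CD41 (from Itga2b) and CD61, the glycoprotein complex that binds von Willebrand factor, and granule proteins such as platelet factor 4 (from Pf4). Some stem cells already carry platelet genes, and the marrow's stem cell and MPP2 populations are both known sources of megakaryocytes in mice.

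There were 4037 barcodes and 66573361 gene UMIs in the chelator pool, and 4026 barcodes and 63370466 gene UMIs in the control pool. No barcode occurred in both pools, and the hashtag of the pool outweighed the other in 4037 of 4037 chelator barcodes and 4025 of 4026 control barcodes. Members were deeper than the rest, with a median of 22974 gene UMIs per cell against 13853.5 in other cells, and the depth was near the same in chelator members (22963) and control members (23101). Each pool mixed cells with Xist, the transcript of female cells, and cells with Y-linked transcripts. Of the sexed members, 34.6% had Xist alone in the chelator pool and 54.2% in the control pool. Cells with both kinds of transcript, which give an estimate of doublets (barcodes that hold more than 1 cell), numbered 5 chelator and 2 control members, which scales to 7.27% and 2.70% of members. Values within each sex are therefore given wherever they change the account.

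The label was checked on the 4 megakaryocyte markers that the rule did not read. Itga2b had a UMI in 96.7% of members, Gp5 in 81.1%, Treml1 in 64.8% and Gp1bb in 63.1%. As a measure of free RNA, the same genes had a UMI in 11.96%, 1.92%, 0.44% and 0.74% of 1354 lymphoid-primed cells (at least 2 UMIs of Dntt), whose median depth was 19065.5 UMIs. At least 3 of the 4 markers were present in 74.1% of members, 71.7% in the chelator pool and 76.5% in the control pool, against 2.70% of other cells. Members with none of the 4 numbered 2. The reverse view is less complete: of 430 cells with at least 3 of the 4 markers, 223 (51.9%) met the rule. The markers thus bore out the label, and the rule takes a part of the cells that carry them.

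**Figure D1:**
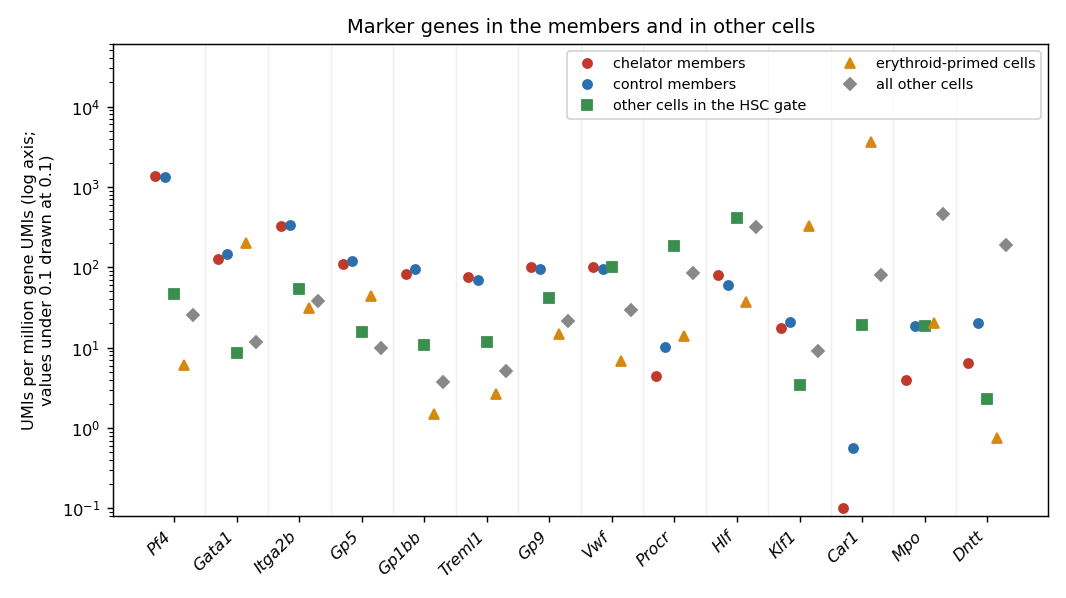
Levels of 14 genes in CPM (log axis), each point the sum over 1 group of cells: chelator members, control members, other cells in the HSC gate, erythroid-primed cells (Klf1 and Car1) and all other cells. Chelator and control members lie close together for the platelet genes (Itga2b 327 and 335) and far above all other cells (37.9), while Procr and Hlf lie below both all other cells and the other cells in the HSC gate.

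Pf4 was used to choose the cells and is given as a description. It had a median of 6 UMIs in a chelator member (quartiles 3 and 22, highest 476) and 10 in a control member (3 and 28, highest 447). The middle of both distributions lay low and both had a long upper tail. Summed over members and scaled to the total of gene UMIs (as CPM, used for every RNA level here), Pf4 reached 1349 CPM in chelator members and 1321 CPM in control members. Gata1 stood at 126 and 146 CPM. The 2 pools overlapped over nearly their whole range for both genes.

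The start regions of 3 of the marker genes, Pf4, Itga2b and Gp5, are shown as examples. Itga2b and Gp5 stood higher in members with more Pf4 (values below). Gp1bb did so too, and Treml1 stood at 103 CPM in the highest band of Pf4 against 52.9 CPM in the lowest, but their regions are not shown. The known regulators of the lineage also read short DNA words. The sequences are from RefSeq, build GRCm38.p6, 250 bases before to 50 after the annotated start, 5' to 3' on the gene's strand. Capitals mark the GATA-type word AGATAA, which reads TTATCT on the opposite strand, and the ETS-type word AGGAAG, which reads CTTCCT on the opposite strand. No such words overlap in these sequences. Pf4 lies at chr5:90772185-90772484 on the plus strand, Itga2b at chr11:102469834-102470133 on the minus strand, and Gp5 at chr16:30310732-30311031 on the minus strand.
Pf4: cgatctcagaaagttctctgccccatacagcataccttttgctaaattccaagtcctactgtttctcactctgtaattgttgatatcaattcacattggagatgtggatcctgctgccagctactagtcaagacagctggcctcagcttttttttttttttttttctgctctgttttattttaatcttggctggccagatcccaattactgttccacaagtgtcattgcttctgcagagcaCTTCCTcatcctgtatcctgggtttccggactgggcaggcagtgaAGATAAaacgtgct
Itga2b: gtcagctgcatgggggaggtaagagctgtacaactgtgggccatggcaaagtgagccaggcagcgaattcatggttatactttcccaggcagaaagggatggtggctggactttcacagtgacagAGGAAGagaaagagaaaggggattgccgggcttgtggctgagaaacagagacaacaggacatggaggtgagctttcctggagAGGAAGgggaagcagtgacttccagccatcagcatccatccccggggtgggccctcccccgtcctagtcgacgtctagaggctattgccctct
Gp5: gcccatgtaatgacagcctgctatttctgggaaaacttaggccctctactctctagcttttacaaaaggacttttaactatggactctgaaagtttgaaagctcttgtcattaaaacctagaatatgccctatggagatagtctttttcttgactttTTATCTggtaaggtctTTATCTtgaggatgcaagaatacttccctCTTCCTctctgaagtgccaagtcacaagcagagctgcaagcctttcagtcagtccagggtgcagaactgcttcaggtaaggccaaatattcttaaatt
The GATA-type word was found in 2 of the 6 marker promoters, Pf4 (36 bases after the start) and Gp5 (at 93 and 77 bases before it), both among the 3 shown. It occurs in 11.2% of 32851 promoters of the same length. The ETS-type word was found in 5 of the 6, Treml1 being without it, and occurs in 35.4% of all promoters. Common words of this kind are a description of the sequence and not binding sites.

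Over whole gene lists, members had higher levels of most platelet receptor and granule genes. They had lower levels of most stem cell, granulocyte and monocyte, and lymphoid genes. The platelet lists include marker genes, such as Gp1bb, Gp5 and Treml1. The comparison is a description, because the rule chose the cells by their RNA. Among 13613 genes with at least 100 UMIs over members and other cells, 6.97% were higher in members past 1.5-fold and 19.9% were lower, 26.8% in either direction, and these shares apply to each count that follows. The median log2 ratio over all these genes was -0.02.

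Receptors and adhesion proteins of the platelet surface stood highest. Of 21 such genes 15 were higher in members and 1 was lower, with a median log2 ratio of 1.64. Gp1bb, a chain of the von Willebrand factor receptor, had 88.6 CPM in members and 3.78 CPM in other cells (23.5-fold). Its partners Gp9 (97.7 against 21.6 CPM) and Gp1ba (23.1 against 2.85 CPM) were higher as well. Gp5, the fourth chain of that complex, had 115 against 9.77 CPM. F2rl2, a thrombin receptor of the mouse platelet, had 45.6 against 2.31 CPM, and the ADP receptor P2ry1 had 29.9 against 4.09 CPM. Treml1, a platelet granule membrane receptor, had 71.7 against 5.15 CPM. The thrombin receptor gene F2rl3 (43.1 against 45.4 CPM) and the collagen receptor gene Itga2 (4.05 against 4.54 CPM) were near level.

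Granule and secretion genes followed, 11 of 18 higher and 2 lower (median log2 1.07). Vwf, the adhesive protein of platelet granules, had 99.0 CPM in members and 29.5 CPM in other cells. Serpine2, a protease inhibitor stored in platelets, had 64.2 against 3.56 CPM (18.0-fold). Rab27b, which serves dense granules, had 155 against 24.8 CPM, and Timp3, a metalloproteinase inhibitor, had 55.1 against 7.86 CPM. Outside these lists, Ache (acetylcholinesterase, a marker of mouse megakaryocytes) had 44.0 against 1.998 CPM. Mfsd2b, a sphingosine-1-phosphate exporter of red cells and platelets, had 116 against 9.37 CPM, and Slc14a1, a urea transporter, had 207 against 35.4 CPM. Fgf3, a growth factor gene, had 43.5 against 8.76 CPM.

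The transcription factors were less far apart, 8 of 19 higher and 2 lower (median log2 0.39). The GATA1 cofactor Zfpm1 had 270 CPM in members and 89.3 CPM in other cells, and Gfi1b had 122 against 45.002 CPM. Fli1 (388 against 185 CPM) and Gata2 (269 against 134 CPM) were also higher. Erg and Lyl1, factors shared with stem cells, were lower at 111 against 199 CPM and 90.3 against 158 CPM. Of 20 cytoskeleton and signalling genes, 6 were higher and 1 lower. Tuba8, an alpha-tubulin, had 158 against 15.9 CPM, and Rap1b, the small GTPase that activates the platelet integrin, had 971 against 191 CPM.

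Of 20 stem cell genes, 13 were lower in members and 2 higher (median log2 -0.95), with a summed level of 1792 CPM in members and 3122 CPM in other cells. Hlf, a stem cell transcription factor, had 69.9 against 313 CPM. Granulocyte and monocyte genes were lower in 11 of 12 cases, with a summed level of 180 CPM in members and 1461 CPM in other cells. Lymphoid genes were lower in 11 of 12, at 245 against 944 CPM summed. Interferon-response genes were lower in 11 of 18, among them Ifitm1 at 165 against 741 CPM. Prtn3, a neutrophil granule protease, had 124 against 599 CPM, Lcp1 had 82.8 against 365 CPM, and Cd34 had 87.6 against 367 CPM. Some genes of these lists went the other way, since 6 of 20 stem cell genes and 1 of 12 granulocyte and monocyte genes lay above 1. Of 9 mast cell, basophil and eosinophil genes, 5 were lower in members and 2 higher (median log2 -2.28). Fcer1a, a receptor gene of mast cells and basophils, was among the higher, at 19.4 against 2.24 CPM.

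Red cell genes were mixed. Of 19, 4 were higher in members and 11 lower (median log2 -1.94). The summed level was 1155 CPM in members against 1046 CPM in other cells. Most of both sums was 1 gene, Car2, with 3392 UMIs in chelator members, 3069 in control members and 76364 in other cells. Epor, the erythropoietin receptor, had 26.8 against 6.09 CPM and Aqp1, a water channel, had 47.0 against 9.76 CPM. Klf1 had a UMI in 26.3% of chelator members and 30.9% of control members, while Car1 had one in 1 member of the control pool. Ermap and Slc4a1, genes of the red cell membrane, had no UMI in the 7154029 member UMIs, which allows up to 0.419 CPM. Cells with both Klf1 and Car1 numbered 87, and only 3 cells, all of the chelator pool, were removed from the members by that clause.

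Members differed among themselves in the levels of their platelet genes. They were described in 3 bands of Pf4, with 95 members at 2 to 3 UMIs, 98 at 4 to 15 and 108 at 16 or more. The highest band held 46 chelator and 62 control members. Itga2b stood at 211, 258 and 471 CPM from the lowest band to the highest, and Gp5 at 93.0, 102 and 140 CPM. Gp1bb stood at 38.0, 52.9 and 151 CPM, and Vwf at 34.4, 55.0 and 177 CPM. Serpine2 had the steepest course of the genes described, at 6.68, 13.0 and 144 CPM. Gata2 (269, 278 and 262 CPM) and Nfe2 (268, 253 and 233 CPM) were nearly flat. The platelet products thus followed Pf4 while these regulators did not.

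Cpa3, a mast cell protease that also marks early progenitors, stood at 59.6, 25.6 and 6.55 CPM over the 3 bands. Hlf stood at 84.7, 84.9 and 48.0 CPM, Klf1 at 22.1, 20.8 and 16.2 CPM, and the stem cell receptor gene Procr at 5.14, 9.10 and 7.59 CPM. The share of members with at least 3 of the 4 other markers was 62.1%, 67.3% and 90.7%. Median depth also differed between the bands, at 20512, 22672 and 24971.5 UMIs, and its part in these shares was not tested.

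The threshold itself cut through a gradient. The 50 members just inside it, with exactly 2 Pf4 UMIs, had 228 CPM of Itga2b, and 56.0% of them had at least 3 of the 4 markers. The 98 cells just outside, with 1 Pf4 UMI and Gata1, had 143 CPM and 23.5%. Both sets were cycling in similar shares (62.0% and 64.3%). Another 369 cells had at least 2 Pf4 UMIs and no Gata1 UMI. These had 94.4 CPM of Itga2b, 361 CPM of Hlf and 87.7 CPM of Procr. The members just inside the threshold had 228, 78.7 and 1.97 CPM. By these genes the 369 cells stood apart from those members, and their nearness to stem cells was not tested.

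The surface tags are protein measurements that the rule did not read, though they come from the same cells. Tag levels are given as UMIs per 1000 surface-tag UMIs. Members held 1364914 tag UMIs, and 93 tags stood above every isotype control antibody. Of these 93, 4.30% were higher in members past 1.5-fold and 11.8% were lower, 16.1% in either direction. CD41, the product of Itga2b, had 22.9 per 1000 in members and 9.84 in other cells (2.32-fold, 2.30 to 2.35). Its median in a cell was 17.7 in chelator members and 16.5 in control members, against 4.72 and 4.41 in the other cells of those pools. CD9, a tetraspanin abundant on platelets, had 15.2 against 6.12 per 1000 (2.49-fold), and CD98, an amino acid transporter subunit, had 6.44 against 4.16 per 1000. Protein and RNA went the same way for CD41 and CD9, since Cd9 RNA stood at 373 CPM in members and 102 CPM in other cells. They did not for every tag. Slc3a2, the gene of CD98, had 348 UMIs in chelator members, 343 in control members and 11057 in other cells. Itgb3, the gene of CD61, had 271, 276 and 3016 UMIs. Of 7154029 member and 122595141 other gene UMIs, Slc3a2 was near level and Itgb3 higher in members, while the CD61 tag was lower in the sum (below).

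CD61, the partner chain of CD41, was lower in the sum, at 8.85 per 1000 in members and 12.2 in other cells, but not in the typical cell. Its median was 6.94 in chelator members and 7.66 in control members, against 4.87 and 4.44 in the other cells of those pools. P-selectin (CD62P), a granule protein shown by activated platelets, was level in the sum at 2.56 against 2.52 per 1000, and 1 cell held 15.5% of the members' UMIs. Its median was 1.47 in chelator members and 1.92 in control members, against 1.23 and 1.86 in other cells. CD150, a stem cell and megakaryocyte marker, was level in the sum (22.0 against 20.6 per 1000) but not in the typical cell. Its median was 18.8 in chelator members and 18.1 in control members, against 4.53 and 4.46 in other cells. The fourth tag past the fold, CD185, rested on 1 chelator cell with 84.2% of the members' UMIs, and without that cell its ratio was 0.995.

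Among the lower tags, CD62L, the L-selectin homing receptor, had 0.917 per 1000 in members and 7.99 in other cells (0.115). Sca-1 had 0.867 against 3.25 (0.267), although every cell had been sorted as Sca-1-positive. Both tags were near the floor in members, where the highest isotype control averaged 3.02 UMIs. The median of Sca-1 was 3 UMIs in chelator and 2 in control members, and that of CD62L was 2 in each. The sort antibodies to Sca-1 and c-Kit were in the same stain as the tags, and how far they limit the tag was not tested. CD371 had 4.53 against 10.6, CD86 had 3.31 against 7.04 and CD27 had 4.76 against 9.31 per 1000. CD24, CD155, CD45RB, CD51, CD48 and CD54 completed the lower set, with ratios of 0.516 to 0.613. The RNA of Ly6a, the gene of Sca-1, was low in members as well (values within the stem cell gate below).

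**Figure D2:**
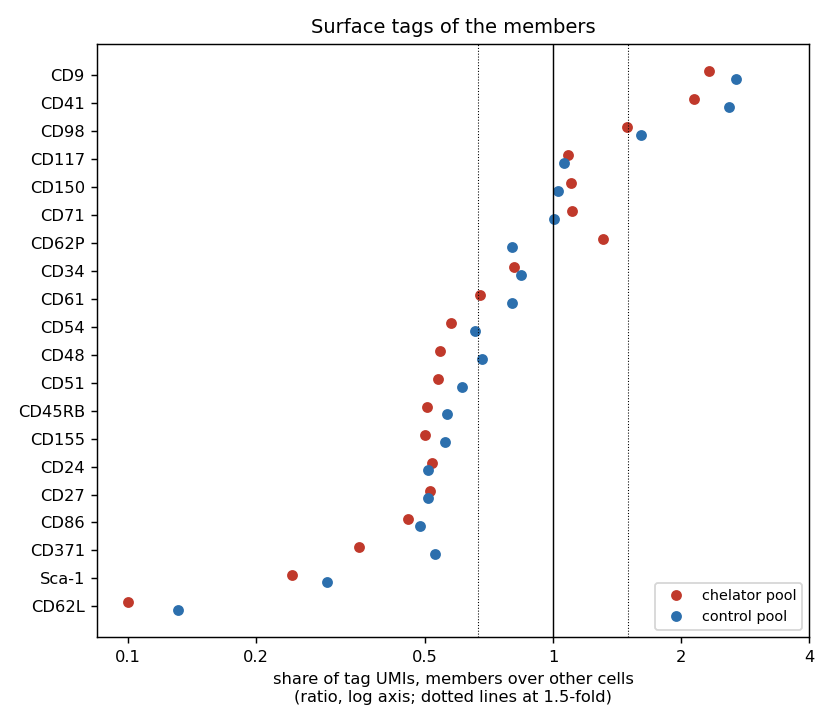
Ratio of each surface tag's share of tag UMIs in members over other cells (log axis), with 1 point for the chelator pool and 1 for the control pool and dotted lines at 1.5-fold. CD41 and CD9 lie right of the line in both pools, at 2.14 and 2.32 in the chelator pool and 2.59 and 2.69 in the control pool, while Sca-1 and CD62L lie farthest to the left.

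The tags also ordered the members among themselves. CD41 stood at 13.9, 17.3 and 32.9 per 1000 over the 3 bands of Pf4 UMIs, and CD9 at 6.31, 8.80 and 25.9. CD150 stood at 18.2, 22.0 and 24.4 and Sca-1 at 1.03, 0.873 and 0.758. CD48, which marks MPP2 and MPP3 cells, stood at 2.92, 2.87 and 2.20, lower in the highest band alone. Over all members Spearman's rho was 0.64 between Pf4 and the CD9 tag, 0.55 between Pf4 and the CD41 tag, 0.52 between Itga2b and the CD41 tag, and 0.69 between both tags. These are descriptions over cells of 2 pools, which share 1 loading and the depth of each cell. Members with more Pf4 thus tended to have more CD41 and CD9 on the surface.

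**Figure D3:**
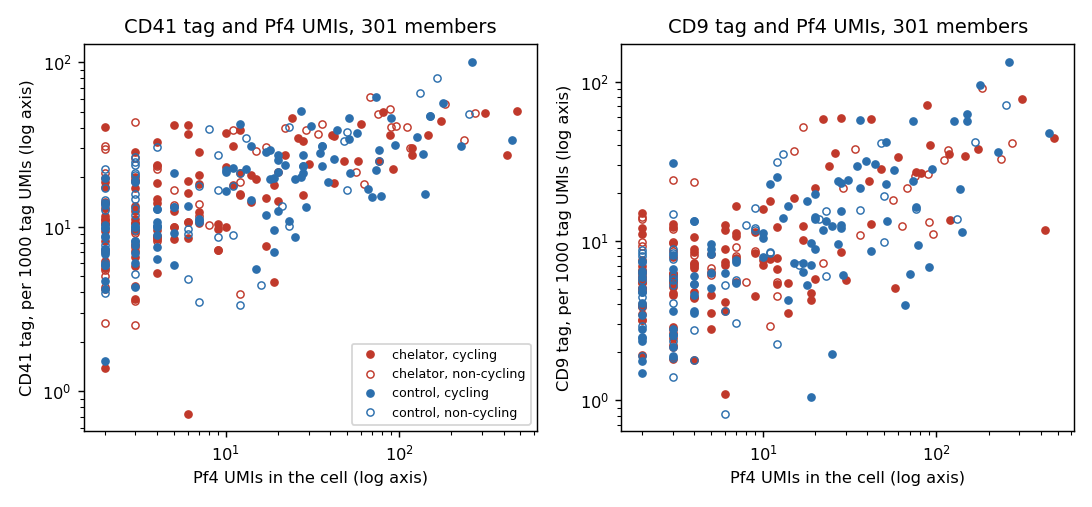
Surface CD41 (left) and CD9 (right) of each of the 301 members, per 1000 tag UMIs, against its Pf4 UMIs (both axes log), with filled points for cycling and open points for non-cycling members of the chelator and control pools. Both tags climb with Pf4 (rho 0.55 for CD41 and 0.64 for CD9), and the pools and cycling states lie over each other.

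By the conventional surface gates, members were spread over stem cells and multipotent progenitors. Gates were drawn on CD135, CD48 and CD150 over all kept cells. The HSC gate (CD135-CD48-CD150+) held 151 members, 50.2%, against 30.3% of other cells. The MPP2 gate (CD48+CD150+ without CD135) held 18.6% of members against 1.76% of other cells, and the lymphoid-primed MPP4 gate held 4.65% against 36.3%. Members made up 6.11% of the HSC gate, 29.3% of the MPP2 gate and 0.50% of the MPP4 gate. Cells with CD135 and CD150 together held 7.24% of chelator and 16.1% of control members, a difference of -8.87 points (-16.3 to -1.59, counting error between 1 pool and 1 pool). This gate rests on few UMIs, since the CD135 median was 1.5 UMIs in chelator and 2 in control members. The highest isotype control averaged 3.02 UMIs in members. In other cells the CD135 median was 0.714 per 1000 in the chelator pool and 0.846 in the control pool. The part of this shift in the gate was not tested. For the HSC gate the difference was 6.31 points (-4.94 to 17.3) and for the MPP2 gate 4.95 points (-3.90 to 13.7), and the intervals of the remaining gates also held 0.

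The members in the HSC gate differed from the gate's other cells in RNA and in tags that the gate did not use. Their Sca-1 tag was 0.689 per 1000 in chelator members against 3.77 in the chelator pool's other gated cells. In the control pool it was 1.01 against 3.76. The ratio in both pools together was 0.220 (0.203 to 0.237). CD51 (4.57 against 10.9), CD61 (10.7 against 21.6), CD24 (3.68 against 7.47) and CD150 itself (26.7 against 41.5) were lower too. CD9 (16.2 against 8.10), CD41 (27.6 against 17.1), CD98 (6.58 against 3.48) and CD71, the transferrin receptor (1.16 against 0.619), were higher.

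In RNA, Procr had 8.67 CPM in the gate's members and 186 CPM in its other cells, Sult1a1 had 8.13 against 273 CPM, and Ly6a had 20.05 against 213 CPM. Hlf (78.1 against 405 CPM), Mecom (157 against 347 CPM), Mllt3 (81.8 against 289 CPM) and the cell cycle brake Cdkn1c (15.99 against 84.6 CPM) were also lower. Ctnnal1, also on the stem cell list, was higher (48.5 against 29.7 CPM), as was Vwf (159 against 99.5 CPM), and Clu was near level (162 against 154 CPM). Meis1 was near level at 359 against 378 CPM. In the MPP2 gate the members differed from other cells in CD9 (18.1 against 6.76 per 1000), CD41 (18.9 against 10.6), CD49b (26.1 against 17.9) and Sca-1 (0.885 against 2.03). Car1, a gene of the rule, was at 1.38 against 782 CPM there.

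Cycling set the members apart within the HSC gate. A cell was called cycling with at least 1 UMI of Mki67, a proliferation gene. Of the gate's members 58.0% were cycling in the chelator pool and 62.9% in the control pool, against 14.5% and 13.2% of its other cells. Members were 6.11% of the gate but 91 of its 413 cycling cells, 22.0% (18.1 to 26.3), with 20.9% in the chelator pool and 23.4% in the control pool. In the MPP2 gate 78.6% of members were cycling against 64.4% of other cells. With Mki67 read on counts thinned to 5000 UMIs per cell, members were 23.0% of the HSC gate's cycling cells. Members were still chosen at full depth there, so the part of depth in their choice was not tested.

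**Figure D4:**
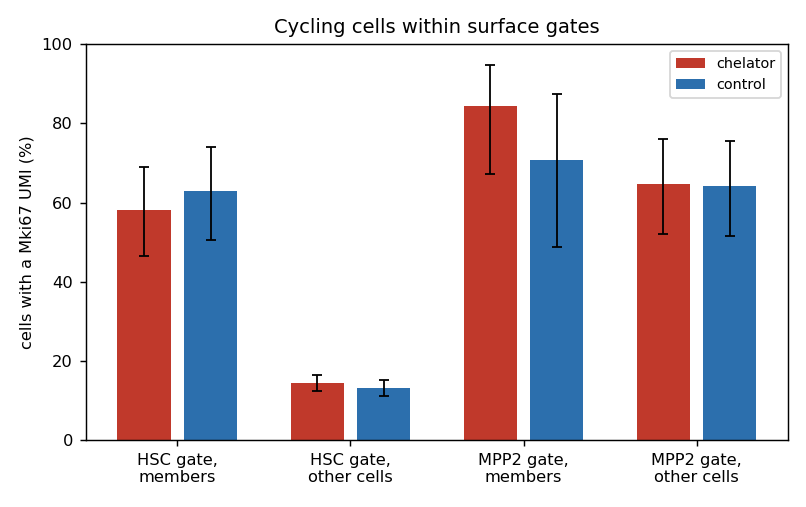
Percent of cells with a Mki67 UMI among members and other cells of the HSC and MPP2 gates, bars for the chelator and control pools, with 95% exact binomial intervals. In the HSC gate members stand at 58.0% and 62.9% and other cells at 14.5% and 13.2%.

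Over all members, 201 of 301 (66.8%) were cycling, against 31.0% of other cells. Cells near to them by RNA were cycling as well, 70.1% of the erythroid-primed cells and 60.7% of the 257 cells with Gata1 and no Pf4 UMI. A high cycling share was thus not particular to members. Of the 369 cells with at least 2 Pf4 UMIs and no Gata1 UMI, 26.6% were cycling, at a median depth of 13891 UMIs. Chelator members were cycling in 67.8% (103 of 152) and control members in 65.8% (98 of 149), a difference of 1.99 points (-8.57 to 12.5). With Mki67 read on counts thinned to 5000 UMIs, the shares were 52.0% and 52.7% in members and 25.8% and 21.9% in other cells. Members were still chosen at full depth. The share was 57.9%, 68.4% and 73.1% over the 3 bands of Pf4. Non-cycling members were shallower, with a median of 17828.5 UMIs against 24731 in cycling members, and cells without a Mki67 UMI can include cells that cycle at low depth.

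Cycling and non-cycling members were close in their platelet genes. Of 8031 genes with at least 100 member UMIs, 7.63% were higher in cycling members past 1.5-fold and 2.60% were lower, 10.2% in either direction. The choice of cells by Mki67 makes the cell cycle genes a description: all 32 G2/M genes were higher (median log2 4.66), with Top2a at 579 CPM in cycling and 34.7 CPM in non-cycling members. Of 27 S-phase genes 8 were higher and 2 lower, Rrm2 at 104 against 21.8 CPM and Mcm2 at 129 against 204 CPM. Outside these lists the highest ratios belonged to genes that had no UMI in non-cycling members, led by the kinesins Kif18b (at least 33.6-fold) and Kif2c (at least 27.3-fold), computed against 3 counts over the group.

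None of 17 platelet receptor genes and 1 of 18 factors (Mafg, lower) passed 1.5-fold, although 15 of the 17 receptor ratios lay below 1 (median log2 -0.23, against about 0 over all genes). Pf4 had 1285 CPM in cycling and 1469 CPM in non-cycling members, and Gp5 had 109 against 131 CPM. The granule genes Clu (74.1 against 138 CPM), Timp3 (44.4 against 83.9 CPM) and Selp (47.1 against 71.5 CPM) were lower in cycling members, 3 of 13 on that list. Tubulins Tuba4a (293 against 158 CPM) and Tuba8 (177 against 108 CPM) were higher. Immediate-early genes, which respond to stimulation and to handling of cells, were lower in 6 of 18, such as Ier2 at 143 against 263 CPM and Egr1 at 83.8 against 150 CPM.

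The lowest ratios in cycling members were of Tcp11l2 (9.38 against 34.7 CPM), the survival kinase Pim2 (10.5 against 24.9 CPM), the co-chaperone Bag2 (14.7 against 33.2 CPM), the nuclear receptors Nr4a1 (10.9 against 24.3 CPM) and Rora (21.1 against 44.6 CPM), and Pik3ip1, an inhibitor of PI3 kinase (13.0 against 26.4 CPM). Eva1b, Sirt5, Odf3b and Eid2 made up the rest, at ratios of 0.459 to 0.491. All 10 had the same direction in each pool taken alone.

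On the surface, cycling members carried more CD48 (2.95 per 1000 against 1.85 in non-cycling members, 1.60-fold) in the chelator pool (1.58) and the control pool (1.61). Of 93 tags, 7.53% were higher past a ratio of 5 to 4 and 1.08% were lower, 8.60% in either direction. CD11a (1.28 against 0.854), CD371 (5.03 against 3.43), CD71 (1.35 against 1.05) and CD106 (4.78 against 3.74) were among the higher, and CD93, a marker of early progenitors, was the lower one (1.17 against 1.61). CD41 was 21.4 against 26.1 per 1000 and CD9 15.3 against 14.96, both under that fold. CD150 had a ratio of 0.943 in members, while cycling and non-cycling cells of the rest differed by a ratio of 0.406. CD185 and CD11c were also above the fold, and each rested on 1 cell.

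The shares of members in the pools were not distinguishable at this depth. Of the kept cells, 152 of 3998 chelator cells (3.80%) and 149 of 3969 control cells (3.75%) were members, a difference of 0.05 points (-0.79 to 0.89). With each cell thinned to 5000 UMIs the rule found 0.88% and 1.34%, a difference of -0.46 (-0.94 to 0.01). Members made up a higher share of Xist cells than of Y cells in both pools, 5.13% against 3.42% in the chelator pool and 5.50% against 3.38% in the control pool. Of cells with neither kind of transcript, 2.76% were members in the chelator pool (14 of 507) and 0.531% in the control pool (3 of 565). The differences between Xist and Y cells were 1.71 points (0.22 to 3.47) and 2.12 points (0.73 to 3.62), and cells of a pool come from an unknown number of mice of each sex.

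The platelet program of the members was near level between conditions. Of the 8031 genes, 4.84% were higher in chelator members past a ratio of 5 to 4 and 5.12% were lower, 9.96% in either direction. In other cells, whose sums are far deeper, 0.286% of the same genes were higher past that fold and 0.249% lower, 0.535% in all. None of 18 megakaryocyte factors and none of 19 cytoskeleton genes passed it, and 3 of 17 receptors and 2 of 13 granule genes were higher. The medians of these 4 lists lay between -0.01 and 0.03 on the log2 scale, against about 0 over all genes. Itga2b had 327 CPM in chelator members and 335 CPM in control members, Gp5 had 109 and 121 CPM, Gp1bb 81.7 and 95.5 CPM, and Treml1 74.7 and 68.8 CPM. Vwf differed by 0.09 and Gp9 by 0.08 on the log2 scale.

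The platelet genes past the fold were Slamf1, the gene of CD150 (136 UMIs in chelator and 100 in control members, log2 0.46), the thromboxane receptor Tbxa2r (207 and 161 UMIs, 0.37), the ATP-gated channel P2rx1 (104 and 83 UMIs, 0.34), Clu (108 and 74.6 CPM) and Nbeal2, which is needed for alpha granules (0.38). Within non-cycling members 10 of 11 receptor genes lay above 1 and 5 passed the fold (median log2 0.31), against 5 of 17 above 1 in cycling members, where 1 was higher and 2 lower (median -0.17). Of all genes 7.60% were higher past the fold in non-cycling members and 9.83% lower, 17.4% in all, against 5.89% and 5.64% in cycling members, 11.5% in all. The summed receptor level was 2115 CPM in chelator and 1730 CPM in control non-cycling members, and 1625 and 1745 CPM in cycling members. The difference between the cycling states was not tested.

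**Figure D5:**
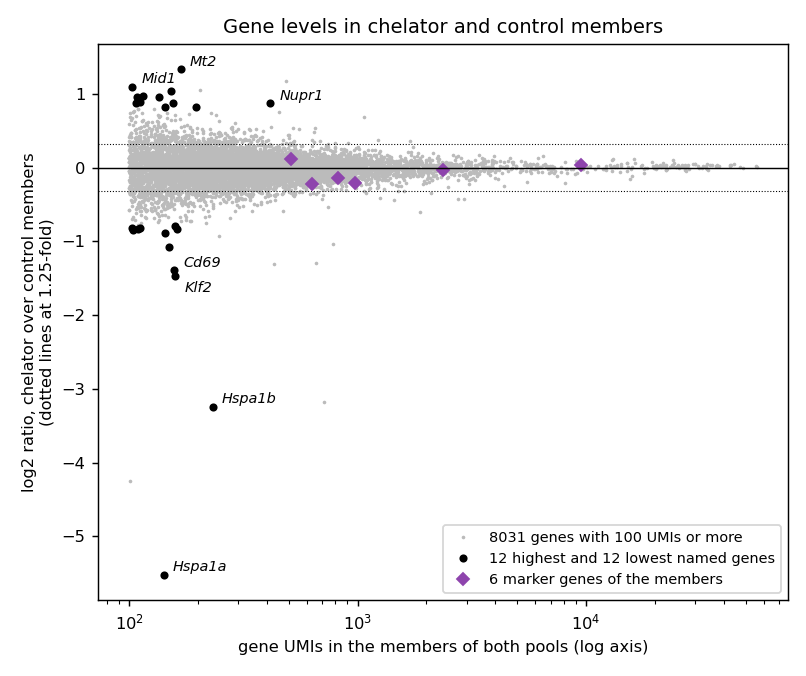
Log2 ratio of chelator over control members for 8031 genes against the gene's UMIs in members (log axis), with dotted lines at a ratio of 5 to 4, named genes in black and the 6 marker genes as diamonds. The markers lie between -0.23 and 0.12, while Hspa1a (-5.52) and Hspa1b (-3.24) lie lowest of the named genes.

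Of the named genes, the highest ratio in chelator members was that of Mt2, a metallothionein that binds zinc and copper. It had 120 UMIs in chelator and 48 in control members, 33.7 against 13.4 CPM (log2 1.33, 0.84 to 1.85). It was higher within Xist members (0.99) and Y members (1.69), and more so in non-cycling (2.32) than in cycling members (0.77), a difference that was not tested. In other cells its ratio was 0.19. Slc39a1, a zinc importer, had 28.6 against 13.9 CPM (1.04), with 0.70 and 1.11 within the sexes and -0.13 in other cells. Both genes were named for their high ratios in members, and the sums of other cells are far deeper. Their ratios nearer to 0 in other cells are thus a description, and whether the shift is particular to members was not tested.

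Nupr1, a stress-responsive chromatin protein also on the stem cell list, had 74.95 against 40.9 CPM (0.87, 0.58 to 1.17), with 1.21 and 1.15 within the sexes and 0.07 in other cells. It had a UMI in 48.0% of chelator and 37.6% of control members. Nkx2-3, a homeobox factor, was higher at 0.97 (1.76 and 0.70 within the sexes). Mid1, a ubiquitin ligase gene of the X chromosome, was higher in members (1.10, with 0.51 and 2.05 within the sexes) and in other cells alike (1.08). Further named genes were Slpi (0.96), Ctsw (0.95), Ect2 (0.87), Per3 (0.87), Rora (0.83) and Serpinf1 (0.82), each on 69 to 125 chelator UMIs. Ctsw did not hold its direction in Xist members (-0.17) and Ect2 did not in non-cycling members (-0.69).

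Of the genes named by the rule, the lowest ratios belonged to the inducible heat shock proteins of the 70 kDa class. Hspa1a had 3 UMIs in chelator members and 139 in control members (0.842 against 38.7 CPM, log2 -5.52, -7.82 to -3.95). A UMI was present in 1.32% of chelator and 18.8% of control members. Hspa1b had 22 and 210 UMIs (log2 -3.24), in 7.24% and 32.2% of members. The genes are near-identical copies, so the split of reads between them is uncertain. Both were lower within Xist members (-4.16 and -2.09) and within Y members, where Hspa1a had 0 against 47 UMIs and Hspa1b a log2 ratio of -4.92. Other cells had the same direction (4.40 against 16.8 CPM of Hspa1a, -1.94, and -2.18 for Hspa1b), so it was not particular to the members. Of 13 heat shock genes only these 2 passed the fold, while 11 of 13 lay below 1 (median -0.15).

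Klf2 (42 and 117 UMIs, -1.47) and Cd69 (43 and 114 UMIs, -1.39), genes of quiescence and of early activation in lymphocytes, came next. Both ratios were larger in Xist members (-1.72 and -1.71) than in Y members (-0.18 and -0.25), and other cells had 0.02 and -0.09. Myl10 (-1.08) was lower in other cells too (-0.78). Hip1r, Jcad, Ikzf5, Stxbp4, Exog, Cars and Hist1h2bm followed at -0.79 to -0.88, and Hist1h2bm stood at -0.28 without its richest cell.

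Deferoxamine binds iron, and the genes of iron and heme handling were little apart. Of 13 iron genes 1 was higher and 1 lower past the fold. Fth1, the ferritin heavy chain, had 1328 CPM in chelator and 1280.1 CPM in control members (0.05, -0.01 to 0.11). Fbxl5, the iron-sensing part of a ubiquitin ligase, had 149 and 114 UMIs (0.40), and the ferrireductase gene Steap3 had 60 and 86 (-0.51). Tfrc, the transferrin receptor, had 37 and 36 UMIs, and the CD71 tag of the same protein had 1.13 against 1.40 per 1000 (0.805), with a ratio of 0.730 in other cells. Hmox1, which breaks down heme, had 42 and 14 UMIs, under the minimum of 100. All 8 heme synthesis genes lay above 1 (median log2 0.19), and 1, Ppox, passed the fold (70 and 45 UMIs, 0.65).

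Immediate-early genes were split by sex. Over all members 1 of 18 was higher and 4 lower (median -0.03), with Jun at 349 against 469 CPM. Within Xist members the median was -0.39, 1 higher and 9 lower of 15, where 7.66% of all genes were higher past the fold and 8.57% lower, 16.2% in all. Within Y members it was 0.37, 9 higher and none lower of 15, beside 6.83% of all genes higher and 6.59% lower, 13.4% in all. Other cells had medians of -0.17 and 0.51 in the same order, so the direction by sex was shared by the rest of the pools. Whether the sexes differ could not be tested with 1 pool per condition.

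Stem cell genes were higher in 4 of 12 cases and lower in none (median log2 0.15), through Nupr1, Slamf1, Hlf (283 and 217 UMIs, 0.40) and Ctnnal1, a catenin-like gene (0.38). Of 7 red cell genes Mt2 alone passed the fold. Their list summed to 1212 CPM in chelator and 1098 CPM in control members, most of it Car2 (3392 and 3069 UMIs). Cell cycle genes were near level, with 1 of 27 S-phase and 1 of 32 G2/M genes higher and none lower. Of 13 cell cycle brakes Rb1 was higher (0.42) and Btg2 lower (-0.59). Of 13 interferon-response genes Iigp1 was lower (-0.38) and the rest lay within the fold.

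Markers of white cell lineages were also summed. The lymphoid list summed to 209 CPM in chelator and 281 CPM in control members, and 2 of its 3 genes with enough UMIs were lower, Cd52 (-0.93) and Lsp1 (-0.75). Granulocyte and monocyte genes summed to 166 and 194 CPM, and 1 of 3 (Irf8) was lower. A control cell described below held most of the Irf8 UMIs and adds to the control sum. Mast cell, basophil and eosinophil genes summed to 46.0 and 63.8 CPM, and mature immune genes to 205 and 251 CPM. The mature immune sum was nearly all 1 gene, Nkg7 (705 and 884 UMIs), which also had 21892 UMIs in other cells. Cd79a (241 UMIs in other cells) and Prss34 (1385 UMIs in other cells) had no UMI in any member, as had Rag1, Ms4a1, Cd3e, Fcnb and Epx, which had 0 to 45 UMIs in all other cells together. Irf8 had 5 and 96 UMIs, Mpo 14 and 66, and Dntt 23 UMIs in 1 cell and 72 in 5 cells. Ms4a2, a mast cell receptor gene, had 1 and 35 UMIs. Genes of MHC class II antigen presentation, named after their values were seen, had low ratios on which 1 cell weighed heavily. Cd74 had 70 and 641 UMIs (-3.18), H2-Aa 189 and 466 (-1.29), H2-Eb1 123 and 308 (-1.31) and H2-Ab1 254 and 527 (-1.04). A single control member held 75.4% of the Cd74 UMIs, 85.1% of those of Irf8 and 50.9% of the CD11c tag, a dendritic cell integrin. Without it the log2 ratio was -0.57 for Cd74, -0.44 for H2-Eb1 and -0.99 for Irf8, still past the fold. It was -0.15 for H2-Aa and -0.22 for H2-Ab1, within the fold.

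On the surface, chelator and control members were close. Of 93 tags 2.15% were higher in chelator members past that fold and 5.38% were lower, 7.53% in either direction. CD41 had 23.6 against 22.1 per 1000 (1.07, and 0.89 within Xist and 1.251 within Y members), whereas in other cells it had a ratio of 1.30. CD150 (22.6 against 21.3), CD61 (8.87 against 8.83) and CD9 (14.7 against 15.8) were within that fold. Ly-49A, a receptor of natural killer cells, was the higher tag (2.83 against 2.20, 1.29, and 1.39 and 1.29 within the sexes). It had a ratio of 1.14 in other cells, and the isotype control MOPC.21 had 0.647 against 0.430 per 1000 in chelator and control members (1.503). CD93 (1.09 against 1.56, 0.694) and CD34 (0.952 against 1.30, 0.732) were lower, with ratios of 0.718 and 0.760 in other cells, so these shifts were common to the pools. CD62L (0.798 against 1.05) was lower in the sum, also within both sexes (0.680 and 0.544). Its median was 0.425 per 1000 in chelator and 0.468 in control members. That was 2 UMIs in each pool, under the highest isotype average of 3.02 UMIs. CD371 (4.01 against 5.13) had opposite ratios within the sexes, 1.10 in Xist and 0.615 in Y members. The other tags past the fold were the 2 that rest on 1 cell.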

How the data were processed

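RNA and surface tags were measured in 1 pool of LSK cells per condition, and the RNA and tag libraries came from 1 loading. The authors deposited raw counts of UMIs per gene or tag and cell. Cell Ranger 7.0.0, Seurat 4.3.0 and mm10 are named per the submitters' processing notes, and Cell Ranger 7.0.1 per the file headers. A matrix was assigned to the pool whose hashtag it held.

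Kept cells had 500 genes or more and less than 10% of UMIs from mitochondrial genes, 3998 of 4037 chelator and 3969 of 4026 control barcodes. No doublet was removed. Counts were summed per pool and group (Python 3.11.15, numpy 2.4.6, scipy 1.17.1, pandas 2.3.3, scikit-learn 1.9.0, matplotlib 3.10.9), and ratios of shares of UMIs were given exact conditional binomial 95% intervals. Shares have Clopper-Pearson intervals and their differences Newcombe intervals. A Y cell had at least 1 UMI of 4 Y-linked genes and no Xist, and a Xist cell at least 2 Xist UMIs and no Y-linked one. Gates on CD135, CD48 and CD150 used mixtures of 2 Gaussians on centred log ratios. The summing was tested on simulated data.

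The named genes left out genes of mitochondria, of T-cell receptors and of immunoglobulins, and predicted genes. They needed a UMI in 5% of the cells of 1 group, and no cell with over 20% of the UMIs. Between members and other cells the 15 highest and 8 lowest ratios were named, of genes with at least 200 member UMIs, apart from the genes of the rule. Between chelator and control members, and between cycling and non-cycling members, genes needed 100 UMIs. The first gave the 12 highest and 12 lowest, and the second the 8 highest outside the cell cycle lists and the 10 lowest. Of tags the 8 highest and 6 lowest were named, with the gate, sort and platelet tags, and up to 4 members of each of 18 gene lists. The members, the lists and the rule were chosen with earlier results of these data known. Further genes and tags were named after their values were seen. Some genes that the rule gives are not reported here.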

Additional observations from a re-analysis of the deposited data

Results flagged for a closer look

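In 6 results chelator and control members differed in opposite directions in the sexes, and whether the sexes differ was not tested. The median log2 ratio of the immediate-early genes was -0.39 in Xist members and 0.37 in Y members, and other cells had -0.17 and 0.51. Of its genes, the transcription factors Jun (-1.17 and 0.46), Fos (-0.64 and 0.73) and Jund (-0.57 and 0.66) and the phosphatase gene Dusp1 (-0.36 and 0.84) had this order. Itgb3, the gene of the CD41 partner chain CD61, had the opposite one, 0.50 in Xist members and -0.37 in Y members.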

How the results depend on the processing

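No paired analysis was possible because each condition is 1 pool and no test was made. Over the filters, thresholds, thinning, sexes and doublets tried 1 at a time, the difference in member share ranged from -0.46 to 0.23 points and that in cycling share from -2.51 to 9.81 points. With a minimum of 50 UMIs, 1464 genes passed a ratio of 5 to 4 between chelator and control members, and with 500 UMIs 46, against 800 at 100 UMIs. Of tags, 7 passed there, 3 on centred log ratios, 15 with the isotype mean subtracted, 12 in Xist members, 17 in Y members, and 4 with the richest cell of each tag left out, a setting chosen after seeing the data. Between cycling and non-cycling members 8 tags passed, 2 on centred log ratios, 14 with isotypes subtracted and 15 in the chelator pool alone. The ratio of Sca-1 in the HSC gate (0.220) was 0.280 on centred log ratios, 0.149 with isotypes subtracted, 0.183 in the chelator pool and 0.269 in the control pool.

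These ratios turned round (log2). Between chelator and control members, Ctsw was -0.17 in Xist members, Ect2 -0.69 in non-cycling members and Jun 0.46 in Y members. CD371 was 0.018 on centred log ratios and 0.13 in Xist members. CD185 was -0.0055 on centred log ratios, -0.15 in Xist members and -0.11 without its richest cell. Between cycling and non-cycling members, CD185 was -0.063 in the control pool and -0.022 without that cell, and CD11c was -0.055 on centred log ratios, -0.16 in the chelator pool and -0.077 without its richest cell. Between members and other cells CD185 was -0.0075 without that cell. Apart from the settings that leave out a cell, the cause was not tested. With 1 pool per condition and about 150 members in each, genes of low counts carry wide intervals, and differences between mice cannot be told apart from differences between conditions.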

Other observations

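In cells outside the members, the red cell and mast cell lists were lower in the chelator pool. Red cell genes were lower past a ratio of 5 to 4 in 12 of 19 cases (median log2 -0.62), with a summed level of 879 CPM in the chelator pool and 1221 CPM in the control pool. Within Xist cells the genes were split, 4 higher and 7 lower of 18 (median 0.00, sums of 953 and 1560 CPM), and within Y cells 2 were higher and 11 lower of 17 (median -0.41, sums of 858 and 1035 CPM). Mast cell, basophil and eosinophil genes were lower in 8 of 9 (median -0.74), at 46.7 and 92.7 CPM. Within Xist cells they had the opposite order, 77.1 against 53.1 CPM, and within Y cells 39.1 against 125 CPM. Of the 8031 genes with at least 100 member UMIs, 0.535% passed that fold in other cells. Only 7 red cell genes and 2 mast cell, basophil and eosinophil genes are among those 8031. That share is thus of a different set of genes from the list counts. Single genes weighed heavily on the sums of both lists. Hbb-bs had 859 UMIs in the chelator pool's other cells and 12026 in the control pool's, and Hba-a1 had 98 and 1434. Prss34 had 7 and 1378 and Mcpt8 293 and 795, while Car2 was near level (38421 and 37943). Whether few cells held these UMIs was not tested.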
